A study of Mus musculus with 28 samples.

Results

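The last interval of a mouse skin wound time course, from day 12 to day 14 as labelled, was examined by RNA sequencing of the wound site. The labels start at day 0, whereas the study's text counts from day 1, the day of injury, so the number of days since injury is uncertain by 1. All genes were compared between the 4 libraries of day 14 and the 4 libraries of day 12, which are 8 of the 28 libraries in the series. The other 20 libraries, from days 0, 3, 5, 7 and 10, were used as context and in alternative fits. The mice were C57BL/6J animals in the labels and MLKL+/+ in the study's methods, 8 weeks old at injury, and they received no treatment besides an excisional punch wound of 6 mm through the dorsal skin to the fascia. The tissue taken was the whole wound site, with scab and epithelial margins, so every library is a mixture of epidermis, hair follicles, dermis, fat, muscle, vessels and infiltrating cells. In such a mixture, fewer cells of a type and less RNA per cell cannot be told apart. Nothing in the labels says that the libraries of a day came from separate mice, so p-values measure only the spread between these samples, which may be technical. Wounds of the 2 days are different samples, so day cannot be told apart from any handling that differed between the days.

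Late in repair the wound is covered by new epidermis, and the dermis is being remodelled: matrix synthesis falls back, inflammatory cells leave, and fat, vessels and hair follicles are rebuilt around the scar. Hair follicles cycle between rest and growth. In growth, dividing matrix cells at the base of the follicle give rise to the hair cortex, the cuticle and the inner root sheath, while melanocytes beside them hand pigment to the shaft. Fat in and under mouse skin can hold heat-producing (thermogenic) adipocytes, which burn fatty acids in mitochondria uncoupled by the protein UCP1.

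Library totals were 39986891 to 40655764 counts on day 12 and 38387970 to 39630672 on day 14. The spread between libraries of the same day was small, with a common biological coefficient of variation of 6.45% on day 12 and 8.78% on day 14, but no library duplicated another of its day: the median chi-square of their counts over genes was 1.82 to 4.25 per pair, where sampling noise alone gives 0.455. The tissue markers were present on both days: the basal keratins Krt5 and Krt14, the dermal collagen gene Col1a1, the macrophage receptor gene Csf1r, the adipocyte hormone gene Adipoq and the muscle gene Ckm were all present, the lowest value being 65 normalised CPM for Csf1r in 1 day 14 library. Day 12 levels of many genes named here lay apart from those of both day 10 and day 14, as shown at the end. The labels were taken as given, so each change is a difference between the libraries labelled day 12 and day 14 and is not shown to be a step in a steady course. Xist had 0 to 13 counts and the Y-linked gene Ddx3y 2101 to 3487 counts in each of the 8 libraries.

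Between day 12 and day 14, most thermogenic fat genes, mitochondrial genes, white adipocyte genes, cell cycle genes, hair cortex keratins and pigment genes rose, while most suprabasal and cornified epidermal genes, resident macrophage, mast cell and lymphatic genes and genes of several dermal matrix groups fell. Of 16701 genes tested with edgeR's quasi-likelihood test, 4513 (27%) were higher and 4709 (28.2%) were lower on day 14 at a Benjamini-Hochberg adjusted p under 0.05. With the fold and P criteria of the study's methods (a log2 fold change over 1.5 and an unadjusted P under 0.05), called large changes here, 94 genes (0.563%) increased and 340 (2.04%) decreased. All 94 and all 340 also had an adjusted p under 0.05. The median log2 fold change over all genes tested was -0.01, and the 5th and 95th percentiles were -1.06 and 0.69. Many of the large increases were in genes with few reads: 26 of the 94, and 156 of the 340 large decreases, had a mean of at least 5 CPM (counts scaled to library size) on one of the days, and 40 and 217 had at least 10 counts in every library. Without overlap between the 4 libraries of each day were 4065 genes (24.3%) higher on day 14 and 4328 (25.9%) lower.

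**Figure D1:**
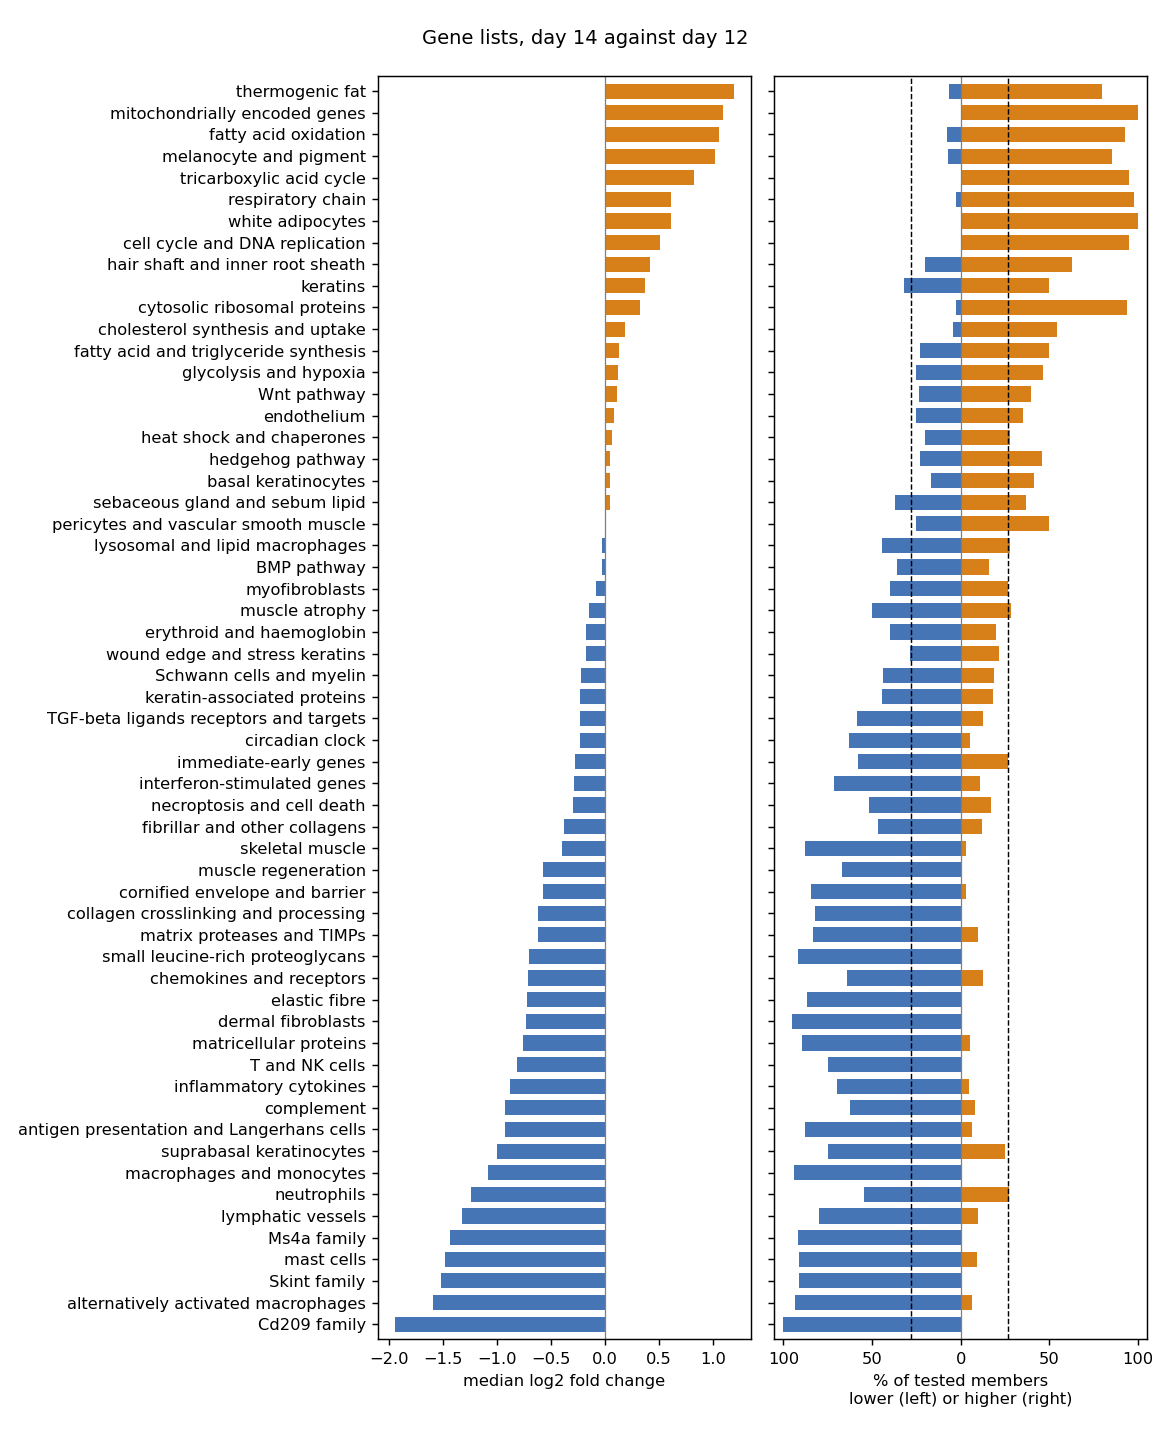
Gene lists on day 14 against day 12. Left, median log2 fold change over the tested members. Right, percent of tested members higher (orange) or lower (blue) at an adjusted p under 0.05, with dashed lines at the 27% and 28.2% of all genes that were called. Thermogenic fat stands at the top with a median of 1.19 and the Cd209 family at the bottom with -1.94.

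Of the 12 largest increases named by the rule, 6 were on the thermogenic fat list: Ucp1, Otop1, Kcnk3, Fabp3, Cox7a1 and Cidea. Of 15 members of the thermogenic fat list that were tested, 12 were higher on day 14, 1 was lower and 2 were neither, with a median log2 fold change of 1.19, and 7 passed the large-change criteria. The summed level of the list, in FPKM (a level corrected for gene length and sequencing depth), was 213 to 231 on day 12 and 956 to 1232 on day 14. Ucp1, the mitochondrial uncoupling protein gene that defines heat-producing adipocytes, stood at 5.67, 11.4, 7.18 and 7.66 normalised CPM in the 4 libraries of day 12 and at 632, 676, 514 and 480 on day 14. Every day 14 library was far above every day 12 library, and the log2 fold change was 6.17 ± 0.17 (SE, edgeR adjusted p = 1.5e-13), or 72-fold. The gene lies at chr8:83290352-83298452 (GRCm38, plus strand).

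The brown fat long non-coding RNA Lncbate10 was at 0 to 2 counts in each day 12 library and 171 to 233 counts in each day 14 library. Over the groups these were 3 against 779 counts, a ratio of 269 per library total with an exact 95% interval of 91.8 to 1.31e+03 that covers counting error only. Slc27a2, a fatty acid transporter and very long chain acyl-CoA synthetase, was at 0.939 to 1.3 normalised CPM on day 12 and 22.2 to 28 on day 14, a 22-fold difference (log2 4.46 ± 0.12, adjusted p = 1.6e-13). Otop1, a proton channel gene of thermogenic fat, was at 1.3, 1.59, 1.21 and 1.47 on day 12 and 22.6, 25.5, 21.6 and 17.8 on day 14, which is 15.7-fold. Plin5, which coats lipid droplets and tethers them to mitochondria, went from 1.82 to 2.19 up to 14.8 to 21.1, which is 8.97-fold. For each of these genes the lowest day 14 library was several times the highest day 12 library.

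The other 7 of the 12 largest increases, and Cox8b, rose by less. Fabp3, a fatty acid carrier of oxidative tissue, rose 4.97-fold (log2 2.31 ± 0.1). Cox7a1 rose 4.55-fold (2.19 ± 0.11) and Cox8b 4.13-fold (2.05 ± 0.096). Both encode cytochrome c oxidase subunits found in muscle and brown fat. Cidea, a lipid droplet protein abundant in brown fat, stood at 43.8 to 55.6 normalised CPM on day 12 and 192 to 231 on day 14, a 4.39-fold rise. Kcnk3, a potassium channel gene, rose 5.77-fold, Gys2, the liver-type glycogen synthase, 5.25-fold, Slc25a34, a mitochondrial carrier, 4.7-fold, and Cpn2, a carboxypeptidase N subunit, 7.06-fold. The rule that named the 12 largest increases required libraries without overlap, and Cox8b, named otherwise, had none overlapping either.

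**Figure D2:**
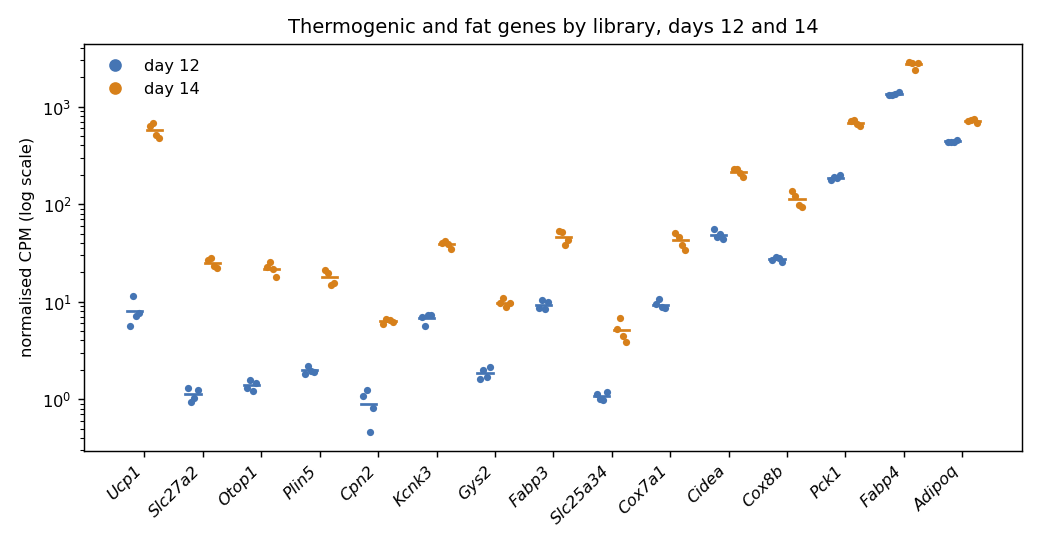
Normalised CPM (log scale) of thermogenic and fat genes in each of the 4 libraries of day 12 (blue) and day 14 (orange); bars are means. In all 15 genes the 4 day 14 libraries lie above the 4 day 12 libraries, which the naming rule required of the largest increases. The gap is widest for Ucp1.

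Regulators of the thermogenic programme gave mixed values. Prdm16, a coregulator of brown fat identity, was at 7.44 to 10.3 normalised CPM on day 12 and 7.95 to 9.56 on day 14 (log2 0.06 ± 0.11, adjusted p = 0.67). Ppargc1a, a coactivator of mitochondrial biogenesis, was at 5.97 to 7.12 and 5.66 to 8.96 (0.17 ± 0.14, adjusted p = 0.3). Neither passed the test, but Ppargc1a did with gene length offsets (0.31). Zic1, a transcription factor gene of classical brown depots, fell from 32.7 to 38.3 on day 12 to 15.5 to 16.5 on day 14 (log2 -1.16 ± 0.066, adjusted p = 4.4e-10), against the direction of the list. Ppara, a nuclear receptor that turns on fatty acid oxidation, rose 2.28-fold, and Adrb3, the adrenergic receptor that stimulates fat, 2.26-fold. Dio2, which activates thyroid hormone, rose 1.72-fold and Elovl3, a fatty acid elongase, 1.49-fold.

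To let the reader see the promoters of the genes that moved most, the 250 bases before the RefSeq start (GRCm38.p6, first transcript listed, written 5′ to 3′ on the gene's strand) are given for 3 of the 5 largest increases. Capitals mark AGGTCA or its reverse complement TGACCT, a short site bound by many nuclear receptors. The letters occur once in each, at chr8:83290098-83290347 (plus strand), chr2:126552774-126553023 (plus) and chr17:56117549-56117798 (minus).
Ucp1: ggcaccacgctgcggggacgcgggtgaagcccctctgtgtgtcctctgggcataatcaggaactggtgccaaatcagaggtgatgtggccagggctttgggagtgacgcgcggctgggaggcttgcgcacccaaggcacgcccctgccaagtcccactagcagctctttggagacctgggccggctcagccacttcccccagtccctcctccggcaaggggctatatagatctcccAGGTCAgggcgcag
Slc27a2: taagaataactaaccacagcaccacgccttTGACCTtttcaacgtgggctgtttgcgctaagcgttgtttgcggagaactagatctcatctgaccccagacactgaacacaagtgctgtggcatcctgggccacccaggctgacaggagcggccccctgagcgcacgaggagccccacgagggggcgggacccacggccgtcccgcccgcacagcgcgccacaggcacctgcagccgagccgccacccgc
Plin5: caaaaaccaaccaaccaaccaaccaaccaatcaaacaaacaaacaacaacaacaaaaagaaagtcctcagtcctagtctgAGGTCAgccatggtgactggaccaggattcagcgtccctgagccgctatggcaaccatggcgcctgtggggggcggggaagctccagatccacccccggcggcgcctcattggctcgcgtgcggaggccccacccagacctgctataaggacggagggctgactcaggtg
AGGTCA on either strand was present in the same window in 5 of the 8 genes with a listed promoter among the 12 largest increases and in 21 of 68 such genes among all large increases (30.9%). Over all tested genes with a listed promoter it was present in 1459 of 13087 (11.1%). A match says only that these letters are in the window.

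White adipocyte genes rose as a whole. All 21 tested members were higher on day 14, with a median log2 fold change of 0.61 and a summed level of 7432 to 7938 FPKM on day 12 and 11592 to 12343 on day 14. Pck1, which makes the glycerol backbone of triglyceride in fat, rose 3.63-fold (176 to 199 against 638 to 726 normalised CPM) and Nnat 3.42-fold. Fabp4, the adipocyte fatty acid binding protein gene, rose 2.01-fold, Adipoq, the gene of adiponectin, 1.62-fold and Plin1, the main lipid droplet coat of white fat, 1.53-fold. Lep, the gene of leptin, rose 1.43-fold. The groups did not overlap in any of these 6 genes. Skeletal muscle genes moved the other way over the same libraries (28 of 32 lower, summed level 6770 to 7639 against 4902 to 5641 FPKM). The part of tissue make-up in the fat gene result was not tested.

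Genes of mitochondrial energy metabolism rose together. Of 85 nuclear genes of the respiratory chain, 83 were higher and 2 lower on day 14 (median 0.61). The exceptions were Cox6a2, the muscle form of a cytochrome c oxidase subunit (log2 -0.56 ± 0.066), and Ndufa4l2, a hypoxia-induced relative of a cytochrome c oxidase subunit (-0.93 ± 0.1). All 13 mitochondrially encoded protein genes were higher (median 1.09), and the share of all counts from these genes was 3.53% to 3.91% on day 12 and 7.18% to 7.46% on day 14. COX1, the catalytic subunit of cytochrome c oxidase, was at 13371 to 14699 normalised CPM on day 12 and 26273 to 31370 on day 14. In the fatty acid oxidation list 25 of 27 were higher and 2 lower (median 1.05), and in the tricarboxylic acid cycle list 20 of 21 were higher (median 0.82). These lists were chosen after the values were seen.

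Among them, Pdk4, the kinase that shuts pyruvate out of the cycle, rose from 48.1 to 56.4 normalised CPM on day 12 to 132 to 160 on day 14 (2.8-fold), Hadhb, a subunit of the trifunctional protein of fatty acid oxidation, 2.76-fold, and Acadvl, its very long chain dehydrogenase, 2.67-fold. Sucla2, a succinyl-CoA ligase subunit, rose 2.34-fold. Cytosolic ribosomal protein genes also rose, by less: 79 of 84 were higher and 2 lower, with a median of 0.32. Rplp2 was at 399 to 427 on day 12 and 556 to 660 on day 14. Rpl3l, a muscle-specific ribosomal protein gene, was 1 of the 2 that fell (log2 -0.51 ± 0.078).

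Cell cycle genes rose. Of 40 genes of the cell cycle and DNA replication, 38 were higher on day 14, none was lower and 2 were neither, with a median log2 fold change of 0.51 and no member past the large-change criteria. Cdc20, an activator of the complex that ends mitosis, was at 30.8, 35, 28 and 34.5 normalised CPM on day 12 and 59, 62.4, 63.1 and 52.5 on day 14 (log2 0.89 ± 0.075, adjusted p = 4.7e-08). Ube2c, the ubiquitin-conjugating enzyme of the same complex, was at 31.7, 34.5, 31.2 and 33.5 and at 60.6, 51.7, 57.8 and 53.6 (0.77 ± 0.061, adjusted p = 1.9e-08). The groups did not overlap in either gene. Mki67, the proliferation marker gene, rose 1.53-fold and Top2a, the topoisomerase gene of dividing cells, 1.42-fold.

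The promoters of the 2 genes that led this list share short elements known from cell cycle genes, and are shown for that reason (250 bases before the RefSeq start, GRCm38.p6). Capitals mark CCAAT or its reverse complement ATTGG, and TTTGAA or its reverse complement TTCAAA, the core of the cell cycle homology element. There were 3 matches in Cdc20 (chr4:118437344-118437593, minus strand) and 7 in Ube2c (chr2:164769679-164769928, plus strand), a CCAAT and an ATTGG overlapping at one place in Ube2c.
Cdc20: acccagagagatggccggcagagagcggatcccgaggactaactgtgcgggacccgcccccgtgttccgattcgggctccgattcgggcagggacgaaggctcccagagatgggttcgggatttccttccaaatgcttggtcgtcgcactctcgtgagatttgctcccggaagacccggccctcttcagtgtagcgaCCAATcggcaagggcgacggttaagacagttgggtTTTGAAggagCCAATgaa
Ube2c: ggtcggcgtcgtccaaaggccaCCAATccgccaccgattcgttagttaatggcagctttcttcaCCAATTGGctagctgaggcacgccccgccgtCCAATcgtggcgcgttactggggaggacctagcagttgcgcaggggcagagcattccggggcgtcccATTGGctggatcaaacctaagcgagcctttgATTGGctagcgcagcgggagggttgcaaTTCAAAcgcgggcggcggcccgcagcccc
CCAAT on either strand was found in 26 of the 33 listed cell cycle promoters (78.8%) and in 35.5% of 13087 promoters of all tested genes. TTTGAA was found in 8 of 33 (24.2%) against 1499 of 13087, and each of those 8 also held CCAAT, a combination present in 4.39% of all.

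Hair follicle genes moved in both directions. Most keratins of the hair cortex and cuticle rose: 13 of 16 were higher on day 14, 2 lower and 1 neither, with a median of 0.64. Krt35, among the first hair keratins made above the matrix, was at 258, 327, 253 and 330 normalised CPM on day 12 and 691, 646, 657 and 522 on day 14 (log2 1.11 ± 0.094, adjusted p = 4.9e-08). Krt85, its partner at the same level of the follicle, was at 480 to 625 and 950 to 1273 (1.01 ± 0.09). Krt36 (1.07), Krt83 (1.02), Krt33b (0.99) and Krt31 (0.94) rose alike on the log2 scale. The day 14 libraries were above the day 12 libraries in all 6 keratins.

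Of 10 regulators of the growing follicle, a subset chosen after the values were seen, 8 were higher and 2, Axin2 and Bmp4, were neither (median 0.73, lowest value -0.15). Shh, the signal sent by matrix cells, was at 7.47 to 9.42 normalised CPM on day 12 and 15.5 to 16.9 on day 14 (log2 0.94 ± 0.088). Lef1, the Wnt-responsive transcription factor of matrix and precortex, was at 35.8 to 42.1 and 67.7 to 76.6 (0.91 ± 0.062). Hoxc13 (0.72), Msx2 (0.74) and Dlx3 (0.76), transcription factors that control hair keratin genes, and Wnt10b (0.75), a Wnt ligand of growing follicles, rose too. Rspo2, a Wnt enhancer, rose 2.04-fold. Receptors and targets of these signals gave smaller values: Ptch1, the hedgehog receptor, was at 97.8 to 107 and 93 to 103 (adjusted p = 0.19), Gli1, a hedgehog target, rose 1.2-fold with overlapping libraries, and Axin2, a Wnt target, was at 40.3 to 42.2 and 37 to 38.7 (adjusted p = 0.054, log2 -0.12). Ptch1 passed as lower without composition normalisation (-0.12). Axin2 passed the threshold as lower in 8 alternatives, at -0.12 to -0.16: without day 14 replicate 3 (-0.13), without composition normalisation, with at least 10 counts in every library, with both kinds of GC content offsets and in the 3 limma fits on FPKM. The Gli1 call (log2 0.26) was lost with GC content offsets (0.21), with all 28 libraries (0.23) and in the 3 limma fits on FPKM (0.20 or 0.21), and the Rspo2 call (1.03) with all 28 libraries (1.00). Day 14 replicate 3 had the lowest Gli1 level of its day, 42.2 against 54.9 to 56.5. Over whole pathways, 15 of 38 Wnt genes were higher and 9 lower, and 6 of 13 hedgehog genes were higher and 3 lower.

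Of 14 melanocyte and pigment genes 12 were higher, 1 lower and 1 neither (median 1.02). A subset of 11 chosen after the values were seen, which holds pigment enzymes, melanosome proteins, the channel gene Trpm1 and the hormone receptor gene Mc1r, rose with log2 fold changes from 0.94 to 1.29. Mitf, the transcription factor that directs the melanocyte lineage, fell (-0.24 ± 0.06, adjusted p = 0.0024), Kit, a receptor melanocytes need, rose with overlapping libraries (0.13, adjusted p = 0.048), and Sox10, another lineage factor, did not pass the test (0.24, adjusted p = 0.071). Pmel, which forms the fibrils on which melanin is laid down, was at 74.3, 93.8, 78.7 and 101 normalised CPM on day 12 and 212, 206, 241 and 189 on day 14 (2.44-fold). Dct and Tyrp1, enzymes of the melanin pathway, rose 2.04-fold and 2.03-fold, Tyr, the rate-limiting enzyme, 1.99-fold and Oca2, a melanosome membrane protein gene, 2.31-fold.

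Inner root sheath and keratin-associated protein genes gave mixed directions. Of 9 inner root sheath keratins and trichohyalins, 2 were higher, 5 lower and 2 neither (median -0.27). Tchh, the gene of trichohyalin, which fills the cells of the inner root sheath and medulla, was at 1109 to 1361 normalised CPM on day 12 and 578 to 792 on day 14 (log2 -0.89 ± 0.095). Among inner root sheath keratins Krt27 fell 1.82-fold and Krt71 fell with overlapping libraries (-0.27, adjusted p = 0.024), Krt28 (0.46) and Krt26 (0.32) rose, and Krt25 (-0.21, adjusted p = 0.064) and Krt73 (0.15, adjusted p = 0.16) did not pass the test. Prr9, a proline-rich gene of hair, fell 2.23-fold. Of 54 tested keratin-associated protein genes, which crosslink the keratins of the shaft, 10 were higher and 24 lower, with a median of -0.23. The direction differed by family and within some families. All 8 genes of the Krtap4 family fell (median -1.55), the lowest fitted value being -3.94 ± 0.389 for Krtap4-13, whose mean was only 1.45 on day 12 and 0.0916 on day 14. Krtap4-8 was at 10.4, 10.5, 8.97 and 10.7 on day 12 and 1.4, 1.68, 1.68 and 1.72 on day 14, which is 6.26-fold lower, and Krtap9-1 was at 8 to 12.3 and 1.17 to 1.71, which is 6.67-fold lower. Krtap9-5 fell as well (log2 -1.83), but Krtap9-3, the most abundant Krtap9 gene tested, had means of 53.4 and 53.3 (adjusted p = 0.99). The single members of Krtap7, Krtap8, Krtap11, Krtap14 and Krtap15 rose by 0.36 to 0.64 on the log2 scale. Krtap7-1 was at 354 to 485 on day 12 and 566 to 782 on day 14 (log2 0.64, a call lost at 0.61 with all 28 libraries). The call of Krtap8-1 (0.51) was lost with all 28 libraries (0.48) and with gene length offsets (0.20). Members of these families, and of the Skint, Cd209 and Ms4a families described further on, resemble each other. How reads shared between near-identical copies were counted is not given in the sources used here, so values of single members are uncertain.

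**Figure D3:**
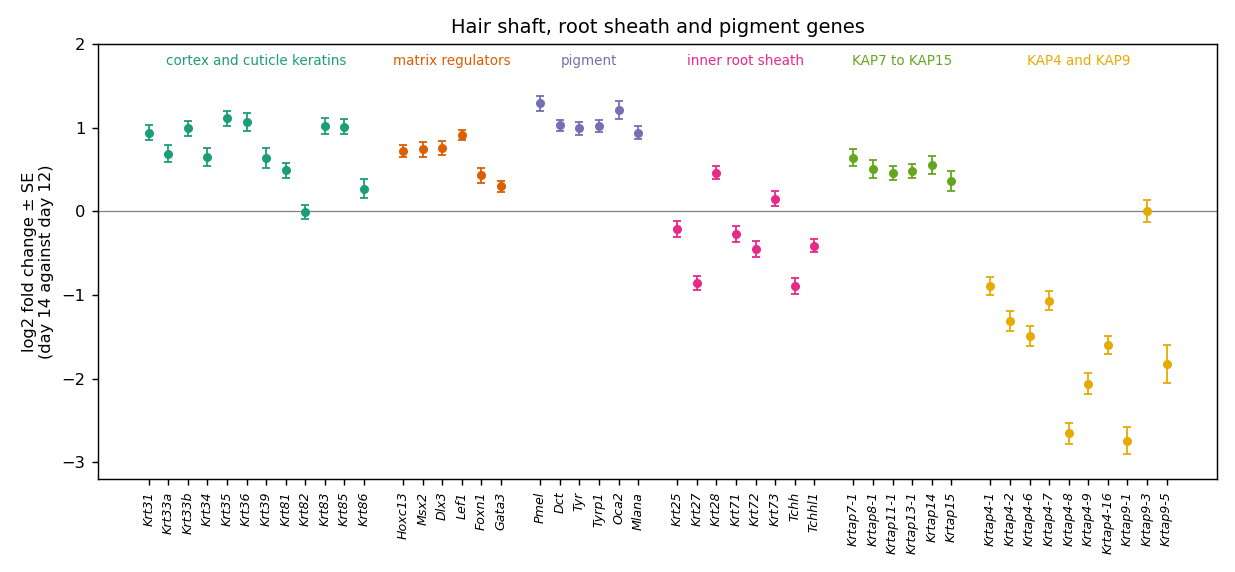
Log2 fold change of day 14 against day 12 (points, with the SE derived from the edgeR F statistic as bars) for selected hair, root sheath and pigment genes. Cortex keratins, matrix regulators and pigment genes lie mostly above 0, up to 1.29 for Pmel. The Krtap4 and Krtap9 genes plotted, which leave out Krtap4-13, reach -2.74, with Krtap9-3 at 0.

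The upper layers of the epidermis fell. Of 12 suprabasal keratinocyte genes 9 were lower and 3 higher on day 14 (median -1), and of 32 genes of the cornified envelope and barrier 27 were lower and 1 higher (median -0.57). Krt77, a suprabasal keratin of interfollicular epidermis and sweat ducts, was at 900, 940, 912 and 822 normalised CPM on day 12 and 137, 146, 180 and 147 on day 14 (log2 -2.55 ± 0.075, adjusted p = 3.8e-13). Krt10, the keratin of the spinous layer, was at 1612 to 1831 and 438 to 624, which is 3.45-fold lower, and its partner Krt1 fell 2.08-fold. Flg2, a filaggrin-like barrier protein gene, fell 4.49-fold, Spink5, an inhibitor of the proteases that shed the skin surface, 4.17-fold and Lce1m, a late cornified envelope gene, 3.31-fold. Ivl and Lor, envelope precursors, fell 1.82-fold and 1.77-fold. None of these 8 genes had overlapping libraries, which the naming rule required of Krt77.

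Basal keratins did not follow. Krt5 rose 1.5-fold (1676 to 1711 against 2352 to 2923 normalised CPM) and Krt14 1.33-fold, and Krt15 was at 684 to 720 and 696 to 827 (adjusted p = 0.37). Of 12 basal keratinocyte genes 5 were higher, 2 lower and 5 neither (median 0.05). Among the keratins of stressed and wound edge epidermis, Krt6b fell 2.99-fold and Krt16 1.42-fold, while Krt6a rose 1.37-fold and Krt17, which is also a keratin of the outer root sheath and hair bed, rose 1.87-fold. With all 28 libraries in the fit the calls of Krt14 (log2 0.39 against 0.41), Krt16 (-0.53 against -0.51) and Krt6a (0.43 against 0.46) were lost. The simple epithelial keratins Krt18 and Krt8 rose 4-fold and 2.28-fold from low levels, at 1.8 to 2.46 and 1.86 to 2.36 on day 12. Gjb2, the gene of a gap junction protein of keratinocytes and follicles, rose 2.04-fold.

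The Skint family, immunoglobulin-like genes of keratinocytes named after a member needed for skin gamma delta T cells, fell nearly as a block: 10 of 11 were lower, with a median of -1.52. Skint10 was at 15.9, 18.7, 17.7 and 15.6 normalised CPM on day 12 and 3.92, 2.07, 2.25 and 3.28 on day 14. Skint5 was at 6.02 to 7.63 and 0.76 to 1.38, and Skint9 at 17.3 to 21.8 and 3.66 to 4.37. The libraries of the 2 days were apart in Skint9 too, as the naming rule required of Skint10 and Skint5. A stretch of chromosome 4 from 112232245 to 114245028 (GRCm38), drawn around large decreases, held 6 of them among 8 tested genes, all Skint genes.

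Genes of 2 of the 3 macrophage lists fell. Of 15 genes of alternatively activated and resident macrophages 14 were lower and 1 higher, with a median of -1.59 and 8 large decreases. Cd163, the scavenger receptor for haemoglobin complexes, had the largest fall among the genes named by the rule: 73.3, 64.7, 72.5 and 66.6 normalised CPM on day 12 and 9.77, 9.57, 9.74 and 10 on day 14 (log2 -2.82 ± 0.062, adjusted p = 2.5e-14), or 7.08-fold. F13a1, a transglutaminase gene of dermal macrophages, fell 4.11-fold, Mrc1, the mannose receptor, 3.77-fold and Ccl8, a chemokine of these cells, 3.6-fold. Chil3, a chitinase-like marker, was at 4.34 to 5.57 and 0.86 to 1.32. General macrophage genes fell as well: 15 of 16 were lower (median -1.08), among them Adgre1 (2.89-fold), Csf1r (2.82-fold), C1qc (2.84-fold) and Cd68 (1.7-fold). The third list, of lysosomal and lipid macrophages, had 8 of 18 lower and 5 higher (median -0.03). The lower members included Ctsk, a collagen-degrading cathepsin (-1.73), and Spp1, the gene of osteopontin (-0.75). The 5 higher were Fabp4 (1.01) and Lpl (0.66), which are also on the white adipocyte list, Acp5, a lysosomal phosphatase (0.68), Cd36, a fatty acid receptor (0.34), and Apoe, a lipid carrier (0.27), while Gpnmb (-0.03), Mmp12 (-0.03) and Ctsd (0.03) did not pass the test.

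Families of lectin and membrane receptor genes moved with them. All 7 tested Cd209 genes, which encode C-type lectins of dermal macrophages and dendritic cells, were lower (median -1.94). Cd209b was at 24.6, 23, 21.9 and 20.7 normalised CPM on day 12 and 3.71, 4.19, 4.69 and 3.54 on day 14, and Cd209f fell 4.08-fold. Of 12 Ms4a genes 11 were lower (median -1.43), among them Ms4a4a, which fell 4.6-fold. At chromosome 8 from 3707064 to 4137707, 7 of 8 tested genes were large decreases, namely Clec4g and 6 of the Cd209 genes. The share of all tested genes that were large decreases was 2.04%. The stretch was drawn around its large decreases, so a high share inside it was set in advance.

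Mast cell and lymphatic vessel genes also fell. Of 11 mast cell genes 10 were lower and 1 higher (median -1.48). Cpa3, the mast cell carboxypeptidase, was at 128, 113, 123 and 100 normalised CPM on day 12 and 26.8, 24.7, 31.8 and 28.4 on day 14, which is 4.16-fold lower, and the protease genes Mcpt4 and Tpsb2 fell 2.8-fold and 3.26-fold. Of 10 lymphatic genes 8 were lower and 1 higher (median -1.32). Mmrn1, a glycoprotein gene of lymphatic endothelium, was at 53.8 to 68.1 and 10.6 to 14.5, Lyve1, a hyaluronan receptor shared with resident macrophages, at 34 to 40.6 and 8.93 to 11, and Prox1, the master regulator of lymphatic identity, at 8.96 to 11.5 and 3 to 4.19. Ccl21a, the lymphatic chemokine that draws dendritic cells, fell 3.04-fold. Blood endothelial genes did not fall as a group: of 20, 7 were higher and 5 lower (median 0.08), Pecam1 fell 1.12-fold with overlapping libraries (a call lost without day 14 replicate 1 or 2, log2 fold changes -0.13 and -0.14 against -0.17) and Cdh5 was at 114 to 128 and 124 to 140 (adjusted p = 0.061, log2 0.12). Cdh5 passed the threshold as higher in 5 alternatives, at 0.12 to 0.15: without day 12 replicate 4 or day 14 replicate 1 (0.15 in both), with upper quartile normalisation, with GC content offsets within days and with gene length offsets.

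Other leukocyte lists were lower on balance. Of 16 genes of antigen presentation and Langerhans cells 14 were lower (median -0.93), of 20 T and NK cell genes 15 (median -0.81), of 47 chemokines and receptors 30 (6 higher, median -0.71) and of 20 inflammatory cytokine genes 14 (1 higher, median -0.88). Of 11 neutrophil genes 6 were lower and 3 higher (median -1.24), where 27% of all genes were higher. Receptor and protease genes such as Il1r2 (2.53-fold) and Mmp9 (2.48-fold) fell, the latter from 8.36 to 9.54 down to 2.26 to 5.79 normalised CPM. S100a9, an alarmin of neutrophils, was at 6.05 to 8.84 and 6.1 to 7.73 (adjusted p = 0.78). Camp, an antimicrobial peptide gene, rose 3.69-fold from a mean of 0.687. The other two that were higher depended on the fit: S100a8 (log2 0.56) lost the call with all 28 libraries (0.54) and gene length offsets (0.19), and Lcn2 (0.36, adjusted p = 0.047) lost it in 11 alternatives, 6 of them with 1 library left out (all but day 12 replicate 1 and day 14 replicate 2), at 0.12 to 0.39. Il1b was at 5.01 to 6.92 and 1.37 to 2.42. Cxcl14, a chemokine of epithelium and dermis, went against its list and rose 1.98-fold.

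In the dermis, genes of the matrix fell. Of 41 tested collagen genes 19 were lower and 5 higher (median -0.38), and the summed level was 8281 to 9336 FPKM on day 12 and 3814 to 4348 on day 14. Col1a1 was at 14327, 12058, 12827 and 12428 normalised CPM on day 12 and 5266, 5042, 6440 and 5697 on day 14 (log2 -1.2 ± 0.078, adjusted p = 2.1e-09). Col1a2 (2.45-fold) and Col3a1 (2.32-fold), which form fibrils in the same tissue, fell too. Col4a3 and Col4a4, chains of a specialised basement membrane network, fell 4.43-fold and 2.96-fold, while Col4a1 and Col4a2, the chains of general basement membranes, rose 1.33-fold and 1.37-fold. The groups did not overlap in any of these 7 genes.

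Other matrix groups fell more evenly. Of 12 small leucine-rich proteoglycans, which organise collagen fibrils, 11 were lower (median -0.7), Lum (lumican) 3.23-fold and Dcn (decorin) 2.47-fold. Of 19 matricellular proteins 17 were lower (median -0.76): Fn1 (fibronectin) fell 2.1-fold, Postn (periostin) 1.57-fold, Cthrc1 2.23-fold and Tnn, a tenascin, 2.78-fold. Collagen crosslinking and processing genes (23 of 28 lower), elastic fibre genes (13 of 15) and matrix proteases and their inhibitors (25 of 30) followed, with medians of -0.62, -0.72 and -0.62. Pcolce2, an enhancer of procollagen processing, was at 135, 101, 121 and 100 normalised CPM and at 21.5, 20, 26.9 and 25.4, which is 4.87-fold lower. Eln, elastin, fell 1.64-fold.

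Of 20 dermal fibroblast genes 19 were lower and none higher (median -0.73). C7, a complement component made by fibroblasts, was at 85.2, 77.7, 78.2 and 72.9 normalised CPM on day 12 and 9.8, 11.2, 12 and 12.5 on day 14 (log2 -2.79 ± 0.074, adjusted p = 1.5e-13). Inmt, a methyltransferase on the same list, fell 3.78-fold. Among genes not on this list, Myoc (myocilin) fell 6.43-fold, Pla2g5, a secreted phospholipase, 6.85-fold and Gadl1, an enzyme of taurine and beta-alanine metabolism, 6.22-fold. The list member Pdgfra, a growth factor receptor common to fibroblasts, fell less, from 192 to 201 down to 119 to 127. Over the myofibroblast list 6 of 15 were lower, 4 higher and 5 neither. The 4 that rose were contractile genes: Acta2 (smooth muscle actin, 1.31-fold), Tagln (1.47-fold), Myl9 (log2 0.32) and Actg2 (0.28). The contractile genes Cnn1 (-0.02), Tpm2 (-0.08) and Cald1 (-0.1), and Tpm1 with an adjusted p of 0.98, did not pass the test. The list of pericytes and vascular smooth muscle, which shares Actg2, had 6 of 12 higher and 3 lower (median 0). Which cells the contractile changes came from was not tested.

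Most skeletal muscle genes fell by little. Acta1 was at 1874 to 2117 normalised CPM on day 12 and 1464 to 1759 on day 14 (log2 -0.35 ± 0.063) and Ckm at 928 to 1008 and 693 to 857 (-0.35 ± 0.06). The list's median was -0.4. Its 1 higher member, Myh7, was also its only large change (log2 1.72), from a mean of 0.81 normalised CPM on day 12 to 2.69 on day 14. Of 16 Schwann cell and myelin genes 7 were lower and 3 higher (median -0.22).

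Mlkl and Ripk3, among the genes that the study followed, moved modestly at this step. Mlkl, the executioner of necroptosis (a regulated, lytic cell death), was at 15.8, 15.8, 16.5 and 17.5 normalised CPM on day 12 and 13.7, 12.9, 11.2 and 15 on day 14 (log2 -0.31 ± 0.089, edgeR adjusted p = 0.0067). Ripk3, the kinase that activates MLKL, was at 11.6 to 14.3 and 9.59 to 11.3 (-0.3 ± 0.09, adjusted p = 0.0086). They were 1.24-fold and 1.23-fold lower, on a background in which 28.2% of all genes were called lower. Hk3, a hexokinase of myeloid cells, fell 1.43-fold (15.1 to 18.2 against 11 to 12.7). Sycp2, a synaptonemal complex gene, was at 0 to 0.193 and 0.259 to 0.369, a level of a few counts (adjusted p = 0.038). That call was lost without day 12 replicate 3 or 4 or day 14 replicate 1 or 4 (log2 fold changes 1.03 and 1.37, and 1.37 in both, against 1.44), with the replicate block (1.51), with no filter on low counts (1.44) and by limma on log2(FPKM + 1) and log2(FPKM + 0.1) (0.03 and 0.26). Of the 17 growth factors and mediators 4 were higher and 8 lower. The largest falls among the 17 were in Chil3 (log2 -2.23), Il6 (-1.38), Mmp9 (-1.31), Arg1 (-1.21) and Il10 (-1.15). Il6 and Il10 had means under 1 normalised CPM, and their calls were lost in some fits with 1 library left out. The largest rise was in Nos2 (0.57), with overlapping libraries and a call lost without day 12 replicate 2. Vegfa rose 1.35-fold with overlapping libraries and Trp53 1.19-fold, Ptges fell 1.33-fold and Tgfb1 1.2-fold, the last with overlapping libraries. Tnf was at 2.5 to 3.32 on day 12 and 1.76 to 2.81 on day 14 (adjusted p = 0.095, log2 -0.38), and Esr1, Ptgs2 and Bcl2 did not pass the test either. Tnf passed as lower in 6 alternatives, at -0.26 to -0.51: without day 14 replicate 4 (-0.51), in the 3 limma fits on FPKM, with the 24 libraries of days 3 to 14 and with gene length offsets. Esr1 (-0.11) passed without day 12 replicate 2 (-0.17).

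Some of the large decreases lay side by side in the genome. Runs of at least 4 large decreases with gaps up to 500 kb were found at 7 places, and no such run of increases. Large increases were fewer, 94 against 340. Each stretch runs from its first to its last large decrease, so a high share inside it is set in advance. Besides the Skint and Cd209 clusters, chromosome 11 from 99385254 to 99949551 held 15 large decreases among 41 tested genes, Krt10 and keratin-associated protein genes among them. Chromosome 19 from 11321039 to 11623719 held 5 Ms4a genes among 9 tested, chromosome 7 from 47980837 to 48643811 held 4 Mrgpr receptor genes among 5, and chromosome 5 from 90772435 to 91402994 held 5 of 10, with the chemokine genes Pf4 and Cxcl3 and the growth factor genes Ereg and Btc. The last, on chromosome 1 from 173221284 to 174031810, held 5 of 14, with Fcer1a of mast cells and 3 Ifi200-type genes.

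The other days give context for the day 12 levels. Here levels are CPM of the library total, averaged over 4 libraries a day, in the order of days 0, 3, 5, 7, 10, 12 and 14, and they were not tested between days other than 12 and 14. Ucp1 was at 0.695, 849, 1732, 548, 307, 8.11 and 567, and Otop1 at 0.747, 33.7, 44.2, 25.5, 17.7, 1.41 and 21.5. For both genes the day 12 mean was below that of every other day except day 0, with higher means on day 10 and day 14 around it. C7 was at 346, 35.8, 72.5, 61.8, 13, 79.6 and 11.2 and Krt77 at 1461, 327, 511, 766, 165, 906 and 150, so that their day 12 means were above those of every other day except day 0. Cd163 was at 126, 182, 216, 95.6, 16.6, 70.3 and 9.63, where day 12 was above days 10 and 14 and below the earlier days. The same shape was seen in other groups, here in the order of days 10, 12 and 14. Acadvl was at 250, 117 and 304 and COX1 at 23975, 14341 and 27503. Mrc1 was at 158, 234 and 60.3, Cpa3 at 51.8, 118 and 27.5 and Cd209f at 8.08, 28.7 and 6.84. Differences of day 12 from day 10 and from day 14 share the day 12 libraries. Day 12 as a stage of healing and anything else that set these libraries apart cannot be told apart.

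Hair and pigment genes differed among themselves. Pmel was at 9.05, 0.718, 2.78, 6.78, 34.2, 88.2 and 208, and Krt35 at 23.1, 0.301, 0.301, 21.8, 37.2, 297 and 619, with means higher on day 12 than on day 10 and higher again on day 14. Krt31, at 26.6, 0.135, 0.227, 33.5, 2.24, 291 and 542, was lower on day 10 than on day 7. Krtap4-8 was at 3.12, 0, 0.0504, 10.3, 0.00633, 10.3 and 1.59, with the same mean on day 7 and day 12 and almost no reads on day 10. In the order of days 10, 12 and 14, Tchh was at 20.5, 1249 and 652, Krt27 at 19.8, 536 and 286, Krt71 at 81.8, 1688 and 1355 and Prr9 at 5.38, 208 and 90.8, so that these genes, like Krtap4-8, had higher means on day 12 than on the days around it. Col1a1 was at 10888, 4846, 10483, 15719, 16643, 13091 and 5520, its lowest means being those of days 3 and 14.

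**Figure D4:**
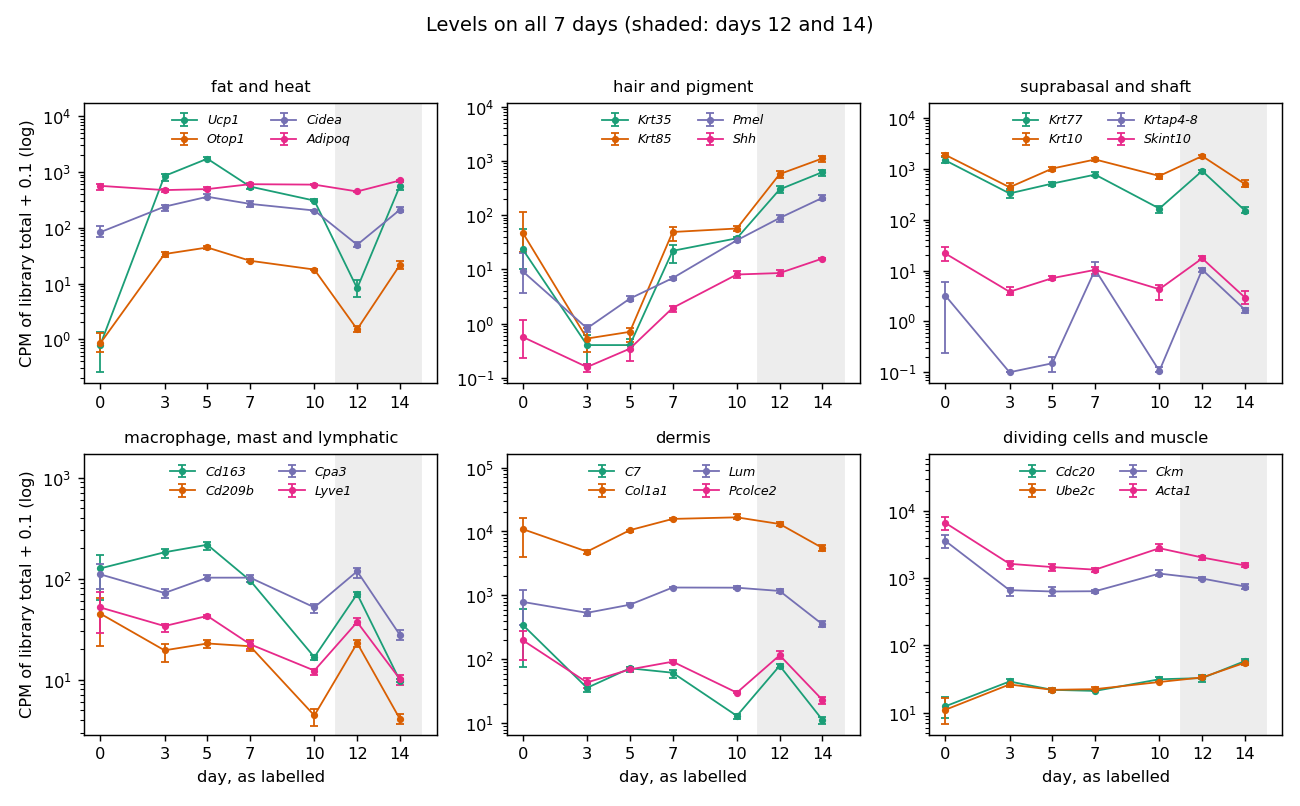
CPM of the library total plus 0.1 (log scale) for 24 genes on the 7 days; points are means of 4 libraries and bars run from the lowest to the highest library, with days 12 and 14 shaded. Ucp1 and Otop1 are lower, and Cd163, C7 and Krt77 higher, on day 12 than on days 10 and 14, while Krt35 and Pmel are highest on day 14.

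One library, day 14 replicate 3, had a trend with GC content. Over 14353 genes with a mean of at least 1 CPM, its deviation from the day 14 mean correlated with transcript GC content (Spearman's rho 0.43 across genes, which are not independent replicates), against -0.25 to 0.14 in the other 7 libraries. Genes under 40% GC had a median deviation of -0.18 in it and genes over 60% GC one of 0.09, on the log2 scale. The fold change itself correlated with GC content at a rho of 0.13, and at 0.07 without this library. Without it, 4696 genes were higher and 4882 lower, and 4255 and 4513 of the calls made with all libraries were kept, with no call in the opposite direction. With GC content offsets the counts were 4640 and 4854, of which 4278 and 4538 were shared, again with no opposite call. Of the 94 large increases and 340 large decreases, 87 and 300 were kept without the library. Genes with large increases had a median GC content of 52.9%, those with large decreases 47.5% and all tested genes 49.8%.

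**Figure D5:**
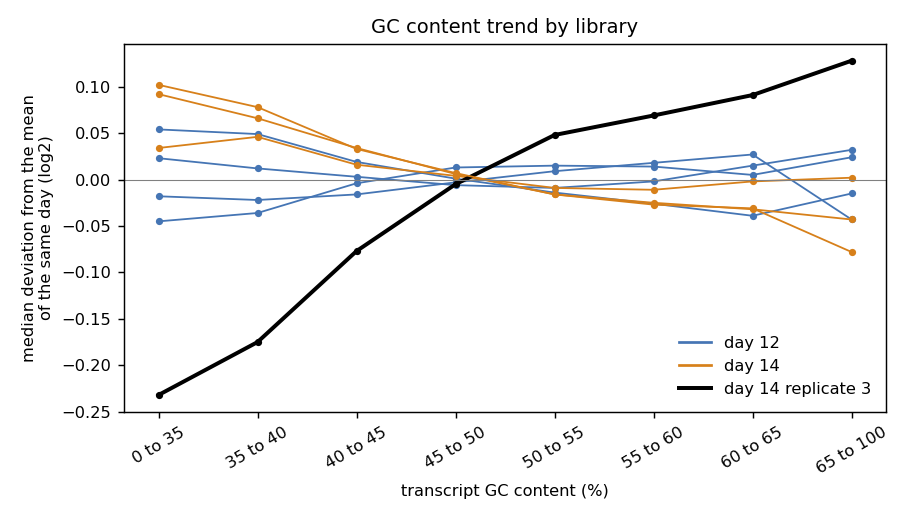
Median deviation (log2) of each library from the mean of its own day, in bins of transcript GC content. Day 14 replicate 3 (black) runs from -0.232 in the lowest bin to 0.128 in the highest, while the other libraries of day 12 (blue) and day 14 (orange) lie between -0.078 and 0.102.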

How the data were processed

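The authors deposited raw read counts per gene symbol and FPKM values for 28 libraries. Per the labels the total RNA libraries were made with a VAHTS Universal V6 kit, and the submitters' processing notes name fastp, R 3.2.0 and the build mm10. The aligner, counting tool, annotation and strand setting are not given in the sources used here. FPKM values as deposited were used for summed levels of gene lists and for alternatives with limma 3.58.1. The counts of the 8 libraries of days 12 and 14 were tested with edgeR 4.0.16 (R 4.3.3, TMM normalisation, filterByExpr, quasi-likelihood test, Benjamini-Hochberg adjustment over 16701 genes of 29068), and adjusted p-values in the text are from this fit. The design was the day alone, and the script was tested on simulated data. Each SE was derived from the test, as the size of the log2 fold change over the square root of the F statistic. GC content and coordinates are from GENCODE M21 (GRCm38, 22209 symbols matched), promoters from RefSeq. Alternatives used DESeq2 1.42.0, other normalisations, filters, more libraries, GC and length offsets, and each library left out.

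Genes were named by a rule: the 12 largest changes in each direction with an adjusted p under 0.05, a log2 size over 1.5, a mean of at least 5 CPM on the higher day, no overlap and no clone name; the 2 largest called changes of each list with a mean of at least 1 CPM; the genes followed by the study; and cell markers. The other genes, the subsets of hair genes and the lists for fatty acid oxidation, the tricarboxylic acid cycle, mitochondrially encoded genes, keratins and the Skint, Cd209 and Ms4a families were chosen after their values were seen. All members and lists were chosen with earlier results of these data known. A few genes are not reported here.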

Additional observations from a re-analysis of the deposited data

Results flagged for a closer look

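In 178 genes, or 356 groups of 4 libraries, 18 had 1 library far from the other 3 of its day by Dixon's test, which chance gives in about 1 in 20 groups (17.8 here). Day 14 replicate 3 accounted for 8 of the 18. Values are normalised CPM. In day 14 replicate 3, Fabp4 was at 2402 (2803 to 2838 in the others), Gli1 at 42.2 (54.9 to 56.5), Skint5 at 0.76 (1.32 to 1.38), Vegfa at 51.4 (68.6 to 71.7) and Mmp8 at 0.0524 (0.316 to 0.417), all low, while Krt15 was at 827 (696 to 709), Acta2 at 522 (444 to 454) and Col4a1 at 1314 (1169 to 1185), all high.

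In day 14 replicate 1, Prdm16 was at 7.95 (9.41 to 9.56), Krtap4-8 at 1.4 (1.68 to 1.72) and Csf1r at 65 (72.1 to 73.5), below the others, and CYTB at 16495 (15194 to 15368) and Top2a at 215 (186 to 190), above them. Ppara was at 44.6 in day 14 replicate 2 (35 to 36) and Tyr at 59.8 in day 14 replicate 4 (68.8 to 70.7). On day 12, replicate 4 had Adipoq at 456 (434 to 437) and Spink5 at 103 (116 to 117), and replicate 1 had Lcn2 at 5.47 (3.71 to 3.87).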

How the results depend on the processing

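The counts of higher (4513) and lower (4709) genes stayed within 1.5 times under every alternative run, at 3603 to 4705 and 4310 to 5271, and at 4108 to 4696 and 4340 to 4882 with 1 library left out. Without composition normalisation 42.5% of called genes were higher, against 48.9%, with a shift of the median log2 fold change from -0.006 to -0.049. The number of large changes depended on the filter for low counts and on the fit, and the limma fits changed the test, the unit and the added constant together. The 94 increases and 340 decreases became 432 and 785 with no filter, 39 and 218 with at least 10 counts in every library, 14 and 70 by limma on log2(FPKM + 1), with or without a mean FPKM of at least 1, and 35 and 204 on log2(FPKM + 0.1). The increases became 143 with all 28 libraries and 142 with the 24 of days 3 to 14. With a log2 fold change over 1 the counts were 316 and 946. Without 1 library the increases were 96 to 132 and the decreases 335 to 427.

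The replicate block gave 4229 higher and 4512 lower genes. Same-numbered libraries did not deviate together (correlations of -0.17, 0.09, -0.08 and -0.09, none best matched by its own number). No pairing by number was seen, but a weak one could go unseen in 4 pairs.

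Some values near 0 turned: with length offsets Ptch1 was at 0.03, Krt15 at -0.06, Esr1 at 0.00 and the heat shock median at -0.02, and Ptgs2 was at -0.01 by limma on log2(FPKM + 0.1). With 1 library left out Prdm16 ran from -0.01 to 0.15, Krt15 from -0.00 to 0.09, S100a9 from -0.12 to 0.07 and Ptgs2 from -0.21 to 0.26, and the medians of basal keratinocytes from -0.01 to 0.08, of sebaceous genes from -0.01 to 0.07 and of lysosomal and lipid macrophages from -0.06 to 0.01. The cause was not tested. Of 4067 values of 178 genes, 3970 kept direction and call, 64 lost and 23 gained the call and 10 turned. Of 1403 list medians, 1300 moved by less than the replicate spread, 99 by more and 4 turned. A fit with Xist as covariate was not run, since it had 0 to 13 counts.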

Other observations

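Genes of the immediate-early response were lower on balance: 15 of 26 were lower on day 14 and 7 higher (median -0.28), and Fosb was among the 12 largest decreases (log2 -2.4). Of 19 circadian clock genes 12 were lower and 1 higher (median -0.23). Of 24 genes of cholesterol synthesis and uptake 13 were higher and 1 lower (median 0.18), and of 28 interferon-stimulated genes 20 were lower and 3 higher (median -0.29). Of 24 complement genes 15 were lower and 2 higher (median -0.93).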
